A study of Homo sapiens with 8 samples.

Results

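The genes described here are the transcription factor subunits and inhibitors of the NF-κB pathway, with the early response gene IER3, in Caco-2 cells given exosomes of M2 macrophages. They were found by symbol in the gene table as 10 of 58735 rows: the Rel subunit genes NFKB1, NFKB2, RELA and RELB, the cytoplasmic inhibitor genes NFKBIA, NFKBIB and NFKBIE, the nuclear inhibitor-like genes NFKBIZ and BCL3, and IER3. The members were chosen by pathway and with the treated over untreated log2 fold changes of IER3, NFKBIZ and NFKB2 in view. Every value of that contrast below is therefore a description of these 6 libraries and supports no claim about the set. All 10 genes had enough counts to enter the fit across 15084 genes.

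The mRNA libraries came from Caco-2, a human colorectal carcinoma line that the design uses as a stand-in for intestinal epithelial cells. One group was given M2-exo (3 libraries), exosomes from THP-1 cells, a monocytic leukaemia line. The other received PBS and is named untreated in the labels (3 libraries). Both groups are labelled wild type. The sources used here give no dose, no time of exposure and no statement that the 3 libraries of a group came from separate cultures, so errors and p-values cover only the spread between these libraries, which may be technical. In bulk RNA, fewer cells with a transcript and less of it per cell cannot be told apart.

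NF-κB factors are dimers of Rel proteins that are held in the cytoplasm by IκB inhibitors. A signal from a cytokine or microbial receptor activates the IKK kinases, the inhibitor is degraded, and the freed dimer enters the nucleus. Among its target genes are several of its own subunits and inhibitors, which makes the pathway a feedback loop; in the intestinal epithelium it is known for barrier defence, chemokine production and cell survival. IκBζ and BCL3, the proteins of NFKBIZ and BCL3, act in the nucleus on bound NF-κB dimers and not as cytoplasmic anchors. IER3 is an early gene induced by NF-κB, growth factors and stress, with a part in the control of cell survival.

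Total counts were 17408745 to 18184325 in the M2-exo treated libraries and 15608937 to 18324599 in the untreated ones. Genes on the mitochondrial chromosome took 7.49% to 8.11% of counts in treated cells and 4.16% to 7.48% in untreated cells, with untreated 1 lowest. The first principal component of all tested genes held 50.1% of the variance and placed untreated 1 (-56.0) and untreated 3 (43.2) at its ends with the treated libraries between them. The epithelial markers EPCAM, CDH1, KRT8 and VIL1 were abundant, with means of 333, 178, 706 and 76.4 FPKM in treated cells and 336, 176, 719 and 84.3 FPKM in untreated cells. KRT20 and LGALS4 held at most 7 counts in any library. The labels give the cell type as stem cells: of the pluripotency markers NANOG and DPPA4 held no count in any library and POU5F1 at most 4, while SOX2 averaged 17.7 FPKM in treated cells and 17.6 in untreated cells. The intestinal stem cell markers were uneven. LGR5 averaged 12.5 FPKM in treated cells and 11.8 in untreated cells, ASCL2 20.2 and 17.9, and AXIN2 12.4 and 13.4. RNF43 averaged 3.38 FPKM in treated and 3.43 in untreated cells, and SMOC2 1.57 and 2.03. OLFM4 held at most 2 counts in any library.

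Promoter windows were looked up first, because NF-κB genes are known to be targets of the factors they encode. RefSeq windows of GRCh38.p14, each 250 bases before to 50 bases after an annotated start, were matched by symbol for 7 of the 10 genes and numbered 13, since several genes have more than 1 start. IER3, RELB and NFKBIE had no window and were not searched. Each was searched on both strands for the consensus NF-κB decamer, and overlapping matches were counted separately. It was found in 8 of these 13 windows and in 6 of the 7 genes, RELA being the exception, against 11.3% of all 35116 windows and 13.3% of all 27305 genes in the table. A looser decamer, GGG at its start and CC at its end with any bases between, searched the same way, was in all 13 windows and all 7 genes, against 58.7% of all windows and 61.7% of all genes. A match is a run of letters, not evidence of binding, and a missing match says only that the letters are not in that window.

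The 250 bases before the first start of NFKBIZ (chr3:101827740-101827989, plus strand), the nuclear inhibitor gene with the larger treated values, and before the only listed start of NFKBIA (chr14:35404750-35404999, minus strand), the standard NF-κB feedback gene, are shown to compare where the decamer, in capitals, falls. It began 223 bases before the start in NFKBIZ and 81 bases before it in NFKBIA.
NFKBIZ: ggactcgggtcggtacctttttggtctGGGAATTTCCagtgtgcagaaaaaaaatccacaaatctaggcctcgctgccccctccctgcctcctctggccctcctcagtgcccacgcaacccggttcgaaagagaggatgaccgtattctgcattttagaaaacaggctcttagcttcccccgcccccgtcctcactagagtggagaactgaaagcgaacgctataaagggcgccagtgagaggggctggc
NFKBIA: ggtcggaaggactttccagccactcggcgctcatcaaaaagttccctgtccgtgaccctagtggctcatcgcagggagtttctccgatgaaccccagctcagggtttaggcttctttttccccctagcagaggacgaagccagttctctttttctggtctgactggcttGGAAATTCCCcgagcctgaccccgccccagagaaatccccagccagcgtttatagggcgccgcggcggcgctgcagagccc

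The other genes are shown by 30 bases around the first match in a window, again with the matched letters in capitals, so that the decamers can be set side by side: NFKB1 (chr4:102501300-102501329), NFKB2 at its second start (chr10:102394461-102394490), NFKBIB at its second start (chr19:38899931-38899960), NFKBIZ at its second start (chr3:101849265-101849294) and BCL3 (chr19:44748700-44748729), all on the plus strand.
NFKB1: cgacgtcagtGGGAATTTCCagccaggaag
NFKB2: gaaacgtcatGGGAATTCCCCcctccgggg
NFKBIB: gggcgtggtgGGGAATTTCCCgcagggcgg
NFKBIZ: gcgcgctgtcGGGGTTTCCCggtgaagggc
BCL3: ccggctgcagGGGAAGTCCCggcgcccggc
NFKB1, NFKBIB and the first start of NFKBIZ hold the same 10 letters, GGGAATTTCC, and the NFKBIA match is these letters read on the opposite strand. The NFKB1 match began 49 bases before its start and the BCL3 match 2 bases after it. NFKB2 had the most matched positions: 3 at its second start, of which 2 overlap, and 2 at its last, while its first start had none.

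**Figure D1:**
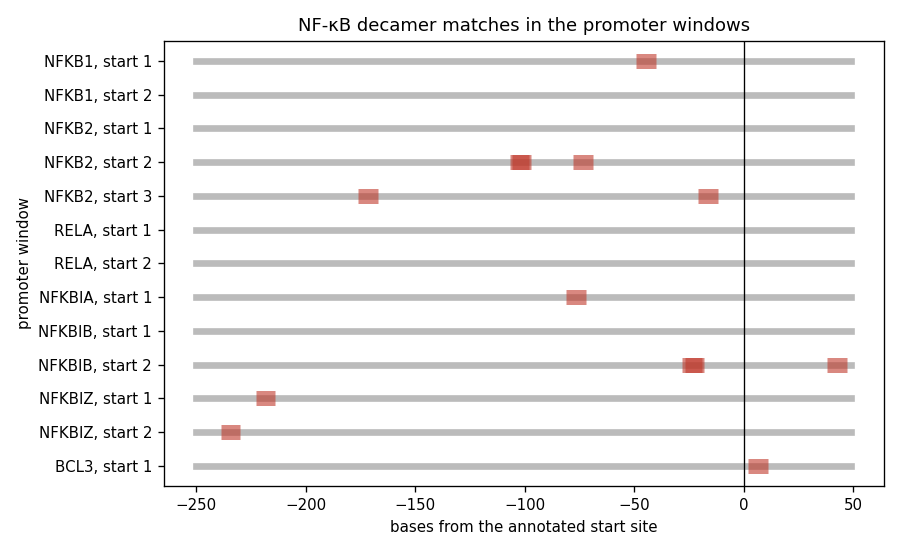
Positions of the consensus NF-κB decamer (red blocks; darker where matches overlap) in the 13 promoter windows of 7 genes (rows, grey bars), on an axis of bases from the annotated start. 8 of the 13 windows hold a match, and both RELA windows hold none.

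Levels between genes were compared per gene length, in the authors' FPKM. In untreated cells NFKBIB, the gene of IκBβ, was the most abundant of the 10 at 19.7 ± 7.26 FPKM (mean ± SD, n = 3, as for all means below), followed by IER3 at 15.3 ± 0.948 and NFKBIA, the gene of IκBα, at 14.6 ± 1.71. The subunit genes came next: RELA at 10.6 ± 3.82, NFKB1 at 9.38 ± 0.590 and NFKB2 at 8.56 ± 2.10 FPKM. NFKBIE stood at 6.33 ± 0.926, NFKBIZ at 4.63 ± 0.490, BCL3 at 3.62 ± 1.82 and RELB at 3.08 ± 0.953 FPKM. Among 12533 tested protein-coding genes these untreated levels ran from the 34.0th percentile for RELB to the 81.2nd for NFKBIB. Most steps in this order were within the spread: in untreated cells the ranges of 7 of the 9 neighbouring pairs overlapped, the exceptions being NFKB2 over NFKBIE and NFKBIE over NFKBIZ.

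In M2-exo treated cells IER3 was first at 24.1 ± 5.73 FPKM and NFKBIB second at 19.7 ± 5.97, and NFKB2 at 10.5 ± 2.17 stood before NFKB1 at 9.05 ± 0.643. The other 6 genes kept their places: NFKBIA at 13.1 ± 2.94, RELA at 11.7 ± 1.67, NFKBIE at 7.41 ± 2.01, NFKBIZ at 6.82 ± 1.46, BCL3 at 4.20 ± 1.88 and RELB at 3.37 ± 0.983 FPKM. The ranges of IER3 and NFKBIB overlapped in both groups, so their exchange of places is within the spread, and so is that of NFKB2 and NFKB1.

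By the gene table (GRCh38), NFKB1 (ENSG00000109320) lies on chromosome 4 from 102501329 to 102617302, NFKB2 (ENSG00000077150) on chromosome 10 from 102394110 to 102402529 and RELA (ENSG00000173039) on chromosome 11 from 65653596 to 65663094. NFKBIA (ENSG00000100906) lies on chromosome 14 from 35401511 to 35404749, NFKBIB (ENSG00000104825) on chromosome 19 from 38899700 to 38908893 and NFKBIE (ENSG00000146232) on chromosome 6 from 44258166 to 44265788. All 10 are annotated as protein-coding.

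**Figure D2:**
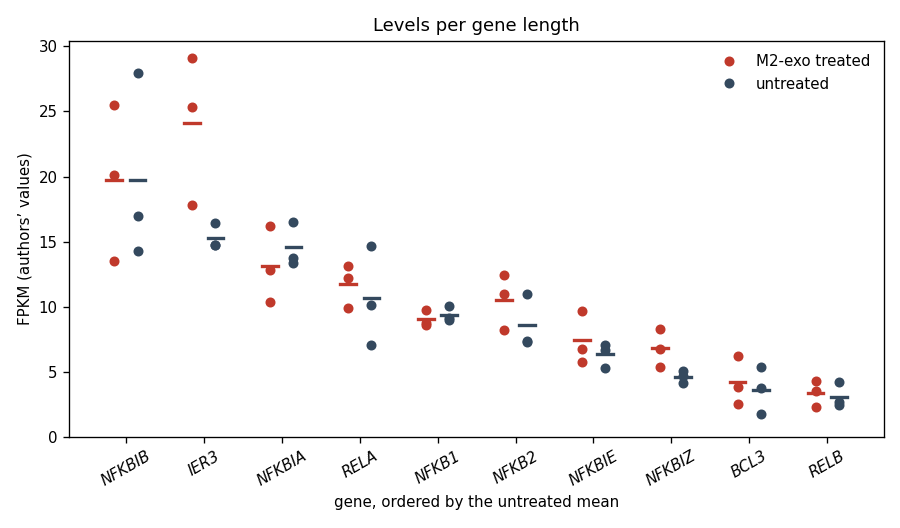
FPKM of each gene (y axis) in the M2-exo treated (red, left) and untreated (dark, right) libraries, with genes ordered by the untreated mean on the x axis; points are libraries and bars are means of 3. IER3 at 24.1 FPKM in treated and 15.3 in untreated cells and NFKBIZ at 6.82 and 4.63 are the genes whose points do not overlap between groups.

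Within a gene, values are given as counts scaled by library size with TMM factors (CPM). Of the Rel subunits, NFKB1, whose protein is cut to the DNA-binding partner of RELA, was the steadiest gene of the set. It had 54.3, 61.3 and 55.4 CPM in M2-exo treated libraries 1, 2 and 3, and 63.8, 57.5 and 56.7 CPM in untreated libraries 1, 2 and 3. The groups overlapped, with means of 57.0 ± 3.77 CPM in treated and 59.3 ± 3.94 CPM in untreated cells and a log2 fold change of -0.06 (SE 0.14, 95% interval -0.38 to 0.26).

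RELA, the main activating subunit, had 54.6, 66.7 and 72.6 CPM in the treated libraries and 39.2, 55.7 and 81.1 CPM in the untreated ones. The untreated libraries spanned the whole treated range, since untreated 1 was the lowest and untreated 3 the highest of all 6. The log2 fold change of RELA was 0.14 (SE 0.25), and it was -0.07 without untreated 1 and 0.45 without untreated 3.

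NFKB2, the precursor gene of the non-canonical arm, had 37.1, 56.0 and 49.7 CPM in treated libraries and 33.7, 32.8 and 49.8 CPM in untreated ones. All 3 treated values lay above untreated 1 and 2, but untreated 3 was as high as treated 3, so the groups overlapped. Its means were 47.6 ± 9.62 CPM in treated and 38.8 ± 9.61 CPM in untreated cells (log2 0.30, SE 0.22). RELB, the partner of the processed NFKB2 protein, had 7.09, 10.8 and 13.0 CPM in treated and 7.43, 8.11 and 12.8 CPM in untreated libraries, with overlapping groups and a log2 fold change of 0.12 (SE 0.30).

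The cytoplasmic inhibitors differed less between groups than between libraries of 1 group. NFKBIA, a feedback inhibitor gene that NF-κB can induce, had 24.8, 30.5 and 38.8 CPM in M2-exo treated libraries and 33.2, 31.8 and 39.7 CPM in untreated ones. Treated 1 and treated 2 were below all untreated values and treated 3 was within their range (means 31.4 ± 7.05 CPM in treated and 34.9 ± 4.19 in untreated cells; log2 -0.15, SE 0.20, 95% interval -0.61 to 0.30).

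NFKBIB had 31.8, 46.8 and 59.7 CPM in treated and 33.6, 39.6 and 65.8 CPM in untreated libraries. These groups nearly coincided, with means of 46.1 ± 14.0 CPM in treated and 46.3 ± 17.1 in untreated cells and a log2 fold change of -0.01 (SE 0.29). NFKBIB overlaps SIRT2, a sirtuin deacetylase gene, on the opposite strand; SIRT2 held 512, 545 and 646 counts in treated and 465, 651 and 770 in untreated libraries. The sources used here do not say whether counting used strand, and reads of this pair may not be separate. NFKBIE, the gene of IκBε, had 15.1, 25.0 and 17.7 CPM in treated and 13.8, 17.3 and 18.4 CPM in untreated libraries, where only treated 2 lay above every untreated value (log2 0.22, SE 0.23, and -0.01 without treated 2).

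Of the nuclear inhibitor-like genes, NFKBIZ was higher in every treated library. It had 49.6, 31.9 and 40.2 CPM in M2-exo treated libraries 1, 2 and 3, and 28.0, 30.2 and 24.6 CPM in untreated libraries 1, 2 and 3. The groups did not overlap, but treated 2 stood only just above untreated 2. The means were 40.6 ± 8.84 CPM in treated and 27.6 ± 2.81 in untreated cells, a log2 fold change of 0.56 (SE 0.20), or 1.47-fold, which was 0.40 without treated 1 and 0.70 without treated 2. NFKBIZ (ENSG00000144802) lies on chromosome 3 from 101827991 to 101861022 of GRCh38.

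BCL3, which binds homodimers of the processed NFKB1 and NFKB2 proteins, was the most variable gene of the set. It had 8.39, 12.3 and 20.5 CPM in treated and 5.78, 12.1 and 17.7 CPM in untreated libraries. The groups overlapped across most of their range (means 13.7 ± 6.15 CPM in treated and 11.8 ± 5.95 in untreated cells; log2 0.21, SE 0.42). The SD of log2 CPM of BCL3 was 0.639 in treated and 0.810 in untreated cells, against medians over all tested genes of 0.190 in treated and 0.300 in untreated cells. BCL3 and RELB lie on the same arm of chromosome 19, at 44747705 to 44760044 and 45001430 to 45038198.

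IER3 had 24.4, 39.5 and 34.7 CPM in M2-exo treated libraries 1, 2 and 3, and 20.3, 22.3 and 20.3 CPM in untreated libraries 1, 2 and 3. All treated values were above all untreated values, with treated 1 closest to them. Means were 32.9 ± 7.70 CPM in treated and 21.0 ± 1.17 CPM in untreated cells, a log2 fold change of 0.65 (SE 0.20), or 1.57-fold, and leaving out 1 library at a time gave 0.50 to 0.84. The untreated values were much closer together than the treated ones, with an SD of log2 CPM of 0.358 in treated and 0.0791 in untreated cells. IER3 (ENSG00000137331), a short gene of 1356 bases on the minus strand of chromosome 6 (30743199 to 30744554), is overlapped by an antisense gene, IER3-AS1, which held 4 counts in all treated and 1 in all untreated libraries.

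**Figure D3:**
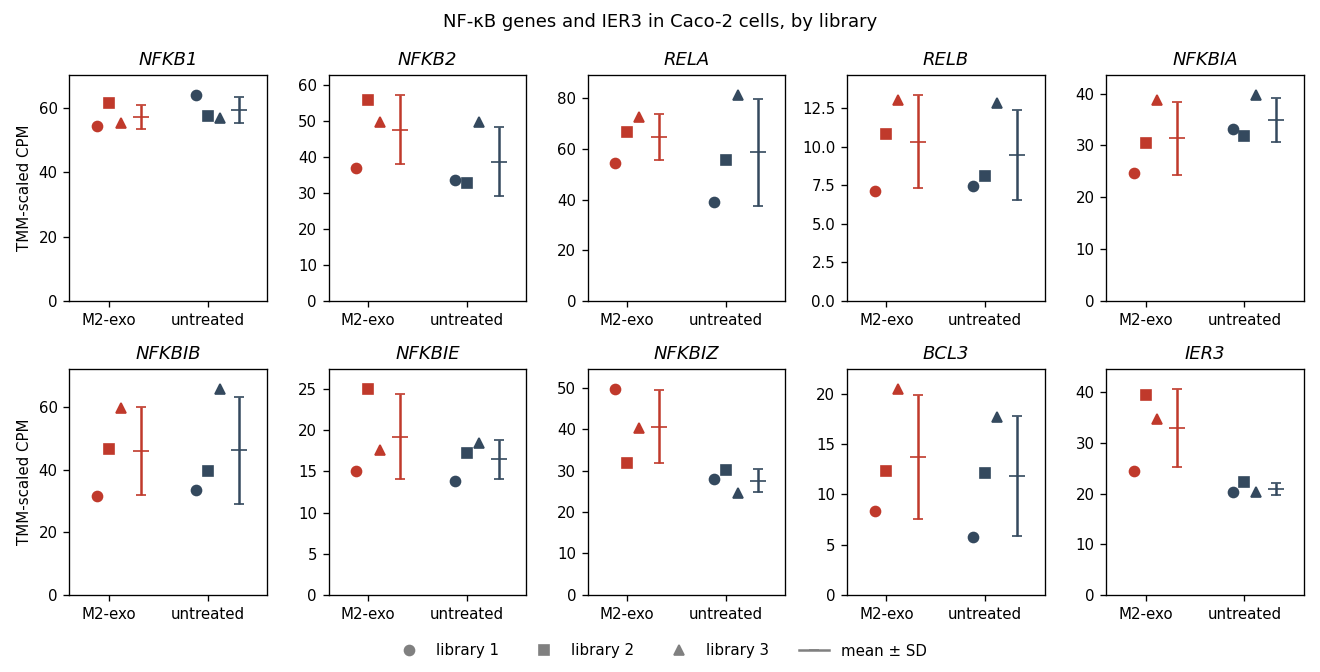
TMM-scaled CPM (y axis, from 0) of each gene in M2-exo treated (red, left) and untreated (dark, right) libraries. Symbols mark library 1, 2 or 3 of a group, which the labels do not state to be pairs, and bars are mean ± SD of 3. Only NFKBIZ and IER3 show treated points wholly above the untreated ones, and RELA and NFKBIB show untreated libraries as far apart as 39.2 and 81.1 CPM and 33.6 and 65.8 CPM.

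In the fit across all genes, none of the 10 passed the adjusted threshold of 0.05 (edgeR quasi-likelihood test, Benjamini-Hochberg adjusted p = 0.9999 for each), and the share of all tested genes that passed was 0%. Before adjustment, 2 of the 10, IER3 and NFKBIZ, had p under 0.05 in edgeR, DESeq2 and limma-voom alike, as had 111, 124 and 104 genes of all those tested by each. In edgeR that number was 1 of the 10 without treated 1 or without treated 2, beside 131 of 15518 and 76 of 15545 tested genes. Without untreated 3 it was 3 of the 10, beside 349 of 15438 tested genes. Groups did not overlap, with treated cells higher, in these 2 genes and in 1.65% of all tested genes; none of the 10 was lower without overlap, as 2.30% of all genes were. Since IER3 and NFKBIZ were known to stand there when the set was made, nothing is read from these counts. By sign, 7 of the 10 log2 fold changes were above 0, against 47.1% of all genes, and their median was 0.17 against -0.01 over all genes. That number was 5 without untreated 1 and 5 without treated 3.

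**Figure D4:**
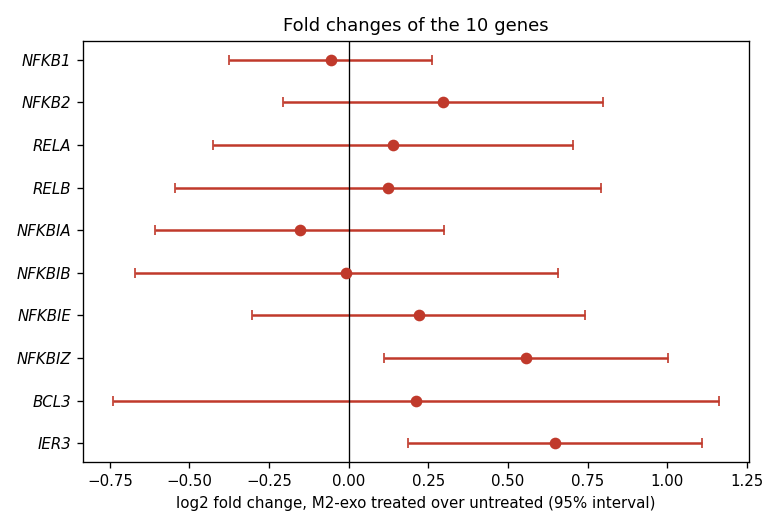
Log2 fold change of each gene, M2-exo treated over untreated (x axis), with its 95% interval from the edgeR fit (3 libraries per group). IER3 at 0.65 and NFKBIZ at 0.56 lie farthest above 0 and NFKBIA at -0.15 farthest below; the intervals are not adjusted for the 15084 genes tested.

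The balance of the pathway's mRNAs was taken within each library from FPKM. The 3 cytoplasmic inhibitors summed to 1.02, 1.12 and 1.30 times the 4 Rel subunits in M2-exo treated libraries 1, 2 and 3, and to 1.24, 1.27 and 1.33 times in untreated libraries 1, 2 and 3. Treated 1 and 2 were below every untreated library, and treated 3 was within their range. NFKBIZ and BCL3 together amounted to 0.367, 0.216 and 0.268 times the cytoplasmic inhibitors in treated and 0.193, 0.238 and 0.184 times in untreated libraries, where treated 2 overlapped untreated 2. Among the Rel subunits RELB held the smallest share in every library, 7.98% to 11.5% in treated and 8.96% to 10.8% in untreated cells. The RELA to NFKB1 ratio was 1.15, 1.24 and 1.50 in treated and 0.703, 1.11 and 1.64 in untreated libraries, with untreated 1 lowest and untreated 3 highest. The share of NFKB2 was 28.3% to 32.8% in treated and 24.9% to 28.3% in untreated cells.

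Several of the genes varied along the main axis of the data. In the order of the first principal component, from untreated 1 through treated 1, untreated 2, treated 2 and treated 3 to untreated 3, RELA had 39.2, 54.6, 55.7, 66.7, 72.6 and 81.1 CPM, higher at every step. BCL3, RELB and NFKBIB were also highest in treated 3 or untreated 3. Untreated 3 had the highest untreated value for 7 of the 10 genes, against 38.1% of all tested genes, and treated 1 the lowest treated value for 9, against 36.6%. IER3, NFKBIZ and NFKB1 departed from this in part: all had their lowest untreated value in untreated 3 (for IER3 level with untreated 1 when rounded). NFKBIZ had its highest treated value in treated 1, the library in which the other 9 genes, IER3 among them, had their lowest. Among treated libraries IER3 was highest in treated 2, where NFKBIZ was lowest, so the genes with no overlap between groups differed in their highest treated library. In treated 3 both were above their mean log2 CPM over the 6 libraries, IER3 by 0.42 and NFKBIZ by 0.28. What part this axis has in the fold changes was not tested.

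**Figure D5:**
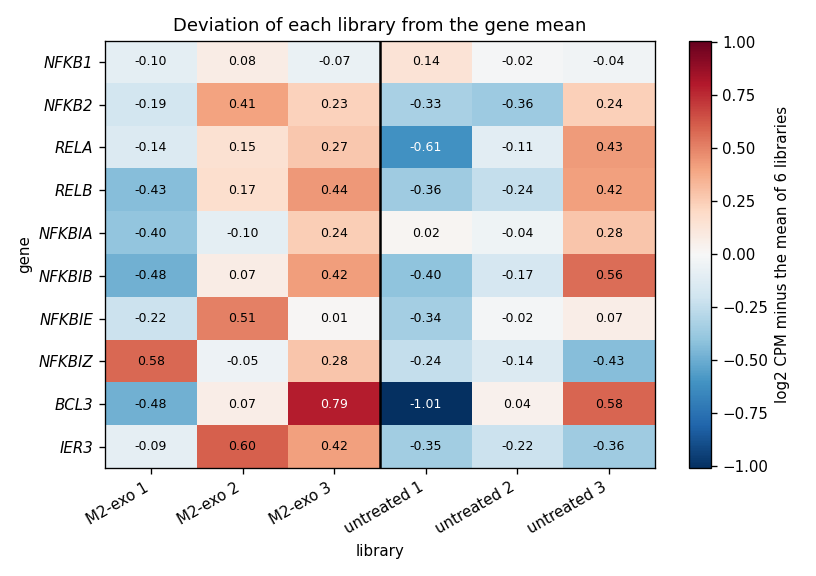
Log2 CPM of each gene (rows) minus its mean over the 6 libraries (columns, M2-exo treated left of the line, untreated right of it); red is above the gene's mean and blue below. BCL3, RELA, RELB and NFKBIB share blue in untreated 1 and red in untreated 3, while IER3 and NFKBIZ are blue in all 3 untreated libraries.

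Likeness of pattern was measured as the root mean square difference of mean-centred log2 CPM over the 6 libraries, a description in which all genes share the libraries and their depth. Among the 10 genes the closest pair was RELB and NFKBIB, at 0.0824, and of 10890 genes with a mean of at least 5 CPM only 2 were closer to RELB. For NFKB2 and for RELA the closest other member was RELB, at 0.185 and 0.180, with 169 and 1070 genes closer. IER3 was closest to NFKBIE, at 0.262, with 43 genes closer. NFKBIZ had no near neighbour in the set, its closest being NFKB1 at 0.389, with 5382 genes closer. Outside the set the genes most like IER3 were the long noncoding RNA AC004982.2 (0.157), CMTM7 (0.194) and the processed pseudogene RPS27AP16 (0.198). Those most like NFKBIZ were the processed pseudogene DUXAP9 (0.104), NAAA (0.131) and PHYHIPL (0.165); counts of pseudogenes may include reads of their parent genes.

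Other genes of the pathway were taken from fixed lists. Of 41 genes upstream of or beside the 10, 40 were tested and none passed the adjusted threshold (smallest edgeR adjusted p = 0.9999, background 0%). An unadjusted p under 0.05 was reached by 0 in edgeR, DESeq2 or limma-voom, beside 111, 124 and 104 of all genes tested by each. In edgeR that number was 2 of the 40 without untreated 3, beside 349 of 15438 tested genes. Log2 fold changes of the 40 were above 0 in 23 (57.5%), against 47.1% of all tested genes, and had a median of 0.03. In the non-canonical arm, which leads to NFKB2 and RELB, the 6 tested genes were all above 0 and none passed. They ran from LTBR (0.04, SE 0.22), a receptor, to the kinase gene MAP3K14 (0.26, SE 0.25). LTBR was -0.14 to 0.24 over the alternatives and below 0 in 2 of 15. MAP3K14 stood at 9.40 ± 0.857 CPM in treated and 7.85 ± 2.36 in untreated cells, and the receptor gene CD40 held no count in any library, where 3 counts would be 0.164 to 0.192 CPM.

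Receptors, adaptors and upstream kinases were above 0 in 5 and below 0 in 9 of 14 cases (median -0.02). The adaptor gene MYD88, which carries signals of IL-1 and Toll-like receptors, was at the upper end, with 51.2, 45.7 and 45.8 CPM in treated and 32.6, 39.6 and 44.3 CPM in untreated libraries (log2 0.29, SE 0.17). Its groups did not overlap, though treated 2 and 3 lay just above untreated 3, and it did not pass. Higher treated values without overlap were seen in 1 of the 14 genes of this list and in 1.65% of all tested genes. The IL-1 receptor gene IL1R1 was at the lower end (-0.18, SE 0.17). In the IKK complex and IκB ligase list 3 of 7 were above 0 (median -0.01), from CHUK, a catalytic IKK subunit (-0.06), to IKBKG, its regulatory subunit (0.03, but below 0 in 3 of 15 alternatives). The linear ubiquitin and negative regulator genes were above 0 in 7 of 9 cases (median 0.08), from TNIP2 (-0.06) to RNF31, a linear ubiquitin ligase (0.19). Of the remaining Rel and IκB genes, REL stood at 0.09 and NKIRAS1 at -0.16, and 2 of 4 were above 0.

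Genes known as NF-κB outputs are a neighbouring group. Of 16 listed, 9 had enough counts to test, 4 above and 5 below 0 with a median of -0.01, and none passed. An unadjusted p under 0.05 was reached by 0 in edgeR, 1 in DESeq2 and 0 in limma-voom. Over all genes it was reached by 111 of 15084 in edgeR, 124 of 29413 in DESeq2 and 104 of 15084 in limma-voom. The chemokine genes CXCL8 (log2 0.09, SE 0.36, but -0.24 to 0.49 over the alternatives and below 0 in 3 of 15) and CCL20 (-0.58, SE 0.28) marked the ends. CCL20 had 9.62, 11.9 and 14.6 CPM in treated and 23.1, 11.7 and 19.1 CPM in untreated libraries. LCN2 and IL6, known targets of IκBζ in mouse cells, were nearly absent: LCN2 held 0, 3 and 2 counts in treated and 2, 0 and 0 in untreated libraries, and IL6 0, 0 and 2 in treated and 1, 0 and 0 in untreated libraries. Immediate early genes, to which IER3 also belongs by its induction, were above 0 in 8 of 11 cases (median 0.15), and none passed. Before adjustment, p was under 0.05 for 2 of them in edgeR and for 1 each in DESeq2 and limma-voom, beside 111, 124 and 104 of all genes tested by each. Groups did not overlap, with treated cells higher, in 1 of the 11, FOS (log2 0.56, SE 0.25), and in 1.65% of all tested genes. EGR1, a growth-factor-induced factor, had 39.6, 21.3 and 30.5 CPM in treated and 6.29, 15.6 and 22.5 CPM in untreated libraries, with overlap (log2 1.04, SE 0.41). FOSB, at under 1 CPM in every library, marked the lower end (-0.51, SE 0.62).

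Markers of macrophages, the cell type that the exosomes stand for, were at low levels. Of 20 such markers 8, among them CD68, TYROBP and FCGR3A, held no count in any of the 6 libraries. The 5 that were tested had counts in every library, with 1 above and 4 below 0 (median -0.21, none passed). CD14 was the most abundant of them, at 3.52 FPKM in treated and 3.84 FPKM in untreated cells. The summed level of the 20 markers was 13.3 to 20.3 CPM in treated and 16.5 to 21.3 CPM in untreated libraries, so the groups overlapped in it. CSF1R (0.28, SE 0.37) and LYZ (-0.65, SE 0.36) were at the ends. Of 10 fibroblast markers 5 were tested, from COL1A1 (-0.11) to PDGFRA (0.37), with sums of 70.7 to 94.5 CPM in treated and 69.6 to 80.7 in untreated libraries; the part of these in the results was not tested. Epithelial markers summed to 7843 to 10415 CPM in treated and 8662 to 11489 in untreated libraries, with 3 of 9 tested members above 0, from FABP1 (-0.45) to CDX2 (0.27). Of the 5 tested intestinal stem cell markers 2 were above 0, from SMOC2 (-0.37) to ASCL2 (0.18). ASCL2 held 299, 408 and 1311 counts in treated and 107, 325 and 1338 in untreated libraries, and its log2 fold change ran from -0.72 to 1.59 over the alternatives. Of the other genes named at the ends of lists, CHUK, TNIP2, NKIRAS1, COL1A1 and CDX2 also changed sign under at least 1 alternative.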

How the data were processed

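The authors deposited whole-number read counts per Ensembl gene and FPKM values per gene for Caco-2 libraries. Per the submitters' processing notes, CASAVA, HISAT2 and featureCounts were used with GRCh38; the sources used here give no versions, annotation, strand setting or handling of multi-mapped reads. Per the file headers 3 columns in each gene table match no sample and were not used, and neither was the exosome small RNA table. Each deposited FPKM is the count divided by the gene length and a constant per library. From the counts, edgeR 4.0.16 in R 4.3.3 was run on all genes: filterByExpr by group, TMM scaling, non-robust quasi-likelihood F test, 2-sided, Benjamini-Hochberg adjustment, threshold 0.05. Standard errors are the absolute log2 fold change over the root of F. The step was tested on simulated data.

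Alternatives were DESeq2 1.42.0, limma 3.58.1 (voom, and log2 of FPKM plus 1 or 0.1), RLE or total-count scaling, other filters, a replicate block, and leaving out each library. The members, lists and tests were chosen with earlier results of these data known. Named beside the 10 genes are the ends of each list, further cell type markers and the 3 genes most like IER3 and NFKBIZ. FOS was named after its values were seen, as were the markers CD14, OLFM4, RNF43 and AXIN2.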

Additional observations from a re-analysis of the deposited data

How the results depend on the processing

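The 10 genes gave no adjusted call under the main setting or any of the 15 alternatives, and neither did the 40 other pathway genes. Over all genes the count of 0 held except with no filter on low counts and without treated 2. With no filter edgeR called 6 genes, EGR1 among them and none of the 10. All 6 had counts in all 6 libraries and were also tested in the main fit. Without treated 2 edgeR called 1, BOLA2B, named after its values were seen. Leaving out libraries gave 0 to 1. IER3 (0.50 to 0.84) and NFKBIZ (0.40 to 0.70) stayed above 0 under all 15 alternatives, as did NFKB2 (0.16 to 0.53). The remaining 7 changed sign under at least 1, and NFKBIB, near 0, kept its sign under 7. The number of the 10 above 0 was 5 to 9 when libraries were left out. The labels number the libraries but do not state that the same number marks a pair. Same-numbered deviations across genes correlated at 0.28, -0.06 and 0.48. Treated 1 and treated 3 correlated best with the untreated library of the same number, and treated 2 with untreated 1, at 0.07. These values do not settle whether the libraries are pairs. With the replicate number as a block, 0 genes were called (smallest edgeR adjusted p = 0.415) and 8 of the 10 were above 0. Unadjusted edgeR p was then under 0.05 in 211 genes, against 111 in the main fit. With 3 libraries per group, the unadjusted 95% interval of the fold change ran from 1.14 to 2.16 for IER3 and from 0.599 to 2.24 for BCL3, the widest of the 10.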
